A study of Mus musculus with 4 samples.

Results

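The differences between the colonized and the germ-free Foxp3GFP library were followed through each cluster of CD4 T cells, to find which were shared by the clusters and which stood in 1 of them. The comparison used the cells that the authors kept after their own filter, grouped by the authors' cluster number, and a cluster entered with at least 50 such cells in both libraries. That held for 9 of 10 clusters, numbered 0 to 8, with 4012 colonized and 3954 germ-free cells. These are 7966 of the 8009 kept cells of both libraries and of 16948 in the series. Cluster 9, with 18 colonized and 25 germ-free cells, was left out.

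Foxp3GFP mice mark cells that express Foxp3, the transcription factor that defines regulatory T (Treg) cells, with green fluorescent protein. Both groups were male Foxp3GFP mice raised germ-free. 1 group stayed germ-free and the other was given fecal microbiota of specific-pathogen-free (SPF) mice, and cells were taken 9 days after that. GFP-positive and GFP-negative CD4 T cells of the mesenteric lymph nodes (mLN), which drain the gut, were pooled from 3 mice per group and mixed in equal parts before 10x 3′ v3 single-cell RNA sequencing, with about 5000 cells targeted. The same pair of conditions in the Foxp3CNS1- strain, which lacks CNS1, an intronic Foxp3 enhancer that takes part in Treg induction outside the thymus, gave a second comparison that shares no library with the first. Each group was 1 library, so the group cannot be told apart from the pool of mice, the library or its batch, no test was made, and genes are described by size. Intervals are exact 95% intervals of the unique molecular identifier (UMI) counts. They cover counting error only.

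As background, type I interferons signal through a receptor on nearly all cells and switch on a common set of antiviral genes. Interferon gamma acts more strongly on the guanylate-binding proteins (GBP) and on antigen presentation by MHC class I. T cells that leave the naive state in a gut-draining node take up other programs, such as the chemokine receptors, granzymes and S100 proteins of effector cells and the genes of cell division, and these differ between T cell subsets.

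Clusters 0, 3 and 6 were Treg-like, with 8, 14 and 8 of 14 Treg markers at over 1.5 times their level in the other clusters. Clusters 1 and 2 were naive-like by 8 and 7 of 10 markers. Cluster 5 was effector-memory-like by 13 of 14 markers, and 9 of 10 follicular helper markers also passed in it. Cluster 8 was proliferating-like by 10 of 10 markers. Cluster 4, led by Slc39a1, Notch2 and Abhd2, and cluster 7, led by Actb, Abhd2 and Notch2, were left without a name. In cluster 7 several lists passed in part, with 7 of 10 follicular helper, 6 of 10 proliferating and 7 of 14 effector memory markers. In Treg-like cluster 3, 7 of 14 effector memory and 5 of 10 follicular helper markers passed as well. Cd4 (115 to 233 CPM) and Cd3e (315 to 791 CPM) were found in every cluster of both libraries, where CPM are the UMIs of a gene scaled to all UMIs of that cluster and library. Of the markers of B cells, myeloid cells, CD8 and NK cells and stroma, 0 to 3 per list and cluster were measured, and no erythroid marker was.

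The colonized library had 13437705 UMIs and the germ-free library 10746648, and the cluster sums ranged from 498032 to 2528019. Median UMIs per cell were higher in the colonized library in each of the 9 clusters, and the share of mitochondrial UMIs was lower in each, with 1.86% to 2.19% against 2.19% to 2.70%. The part of depth and of the mitochondrial share in the ratios given here was not tested, beyond the thinned values in the closing section. The libraries shared 23 cell barcodes. In a sum over a cluster, more cells with a transcript and more transcript per cell cannot be told apart.

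A gene was measured in a cluster with at least 50 UMIs over both libraries, and a ratio of the colonized over the germ-free CPM of at least 2 in either direction, a log2 ratio of 1 or -1, is called 2-fold here. Genes 2-fold higher in the colonized library were 66 of 6069 in cluster 0 (1.09%), 54 of 5956 in cluster 1 (0.907%), 41 of 5623 in cluster 2 (0.729%), 78 of 4078 in cluster 3 (1.91%), 63 of 5316 in cluster 4 (1.19%), 82 of 4027 in cluster 5 (2.04%), 45 of 4895 in cluster 6 (0.919%), 88 of 3037 in cluster 7 (2.9%) and 78 of 4798 in cluster 8 (1.63%). Genes 2-fold lower were fewer in each cluster at this bound. From cluster 0 to cluster 8 they numbered 52 (0.857%), 26 (0.437%), 28 (0.498%), 46 (1.13%), 30 (0.564%), 31 (0.77%), 33 (0.674%), 47 (1.55%) and 27 (0.563%). The higher genes made up 55.9% of the 2-fold genes in cluster 0 and 74.3% in cluster 8, the ends of the range. Scaling by median ratios in place of totals moved this share from 62.9% to 74.1% in cluster 3, from 67.7% to 57.7% in cluster 4 and from 65.2% to 55.3% in cluster 7. The direction depended on the bound: at 1.5-fold the lower genes were more numerous in clusters 0, 1, 2, 3 and 6, with 361 lower against 225 higher genes in cluster 0 and 318 against 214 in cluster 3. The median log2 ratio over all measured genes lay between -0.07 and 0.08.

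Few genes passed 2-fold in many clusters. Of 4970 genes measured in at least 5 clusters, 4544 passed it in none, 318 in exactly 1, and 7 in both directions in different clusters. Past it in the same direction in every cluster where they were measured were 11 genes in the higher direction, or 0.221%, and 1 in the lower, or 0.0201%. The 11 were Ly6a, Isg15, Ifit1, Ifit3, Irf7, Usp18, Bst2, Xaf1, Ms4a4c, Plac8 and Gzmb. Most of these are known interferon-induced genes. Plac8 is found in effector T cells and Gzmb encodes granzyme B. The gene in the lower direction was AY036118, a long non-coding RNA. The minimum of 50 UMIs fixed part of this set. In 28 of the 85 pairs of a higher shared gene and a cluster, the gene would not have reached it at its germ-free level in both libraries, so that the pair could enter only with a higher colonized level. This held for 6 of 6 clusters of Gzmb, 5 of 7 of Plac8 and 4 of 8 of Ifit3, and for none of the 9 clusters of Ly6a and of Bst2.

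Upstream windows were available for 9 of the 11 genes from RefSeq (GRCm38.p6), and Ly6a and Usp18 had no entry. The 250 bases before the start of 4 of them hold GAAANNGAAA, the core of the interferon-stimulated response element, on either strand. These 4 windows are shown because they hold the core. All 9 genes belong to the group that was higher in every cluster where measured. Capitals mark the matches, read as TTTCNNTTTC where the element lies on the other strand. The matches in Isg15 and in Bst2 overlap one another. The window of Ifit1 is at chr19:34640639-34640888 (+), Ifit3 at chr19:34583279-34583528 (+), Isg15 at chr4:156200819-156201068 (-) and Bst2 at chr8:71537473-71537722 (-).
Ifit1: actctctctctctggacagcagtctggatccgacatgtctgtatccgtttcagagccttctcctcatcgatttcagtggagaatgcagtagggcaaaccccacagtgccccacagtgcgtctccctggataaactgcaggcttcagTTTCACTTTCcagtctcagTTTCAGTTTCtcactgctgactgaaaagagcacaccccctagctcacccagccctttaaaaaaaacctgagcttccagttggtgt
Ifit3: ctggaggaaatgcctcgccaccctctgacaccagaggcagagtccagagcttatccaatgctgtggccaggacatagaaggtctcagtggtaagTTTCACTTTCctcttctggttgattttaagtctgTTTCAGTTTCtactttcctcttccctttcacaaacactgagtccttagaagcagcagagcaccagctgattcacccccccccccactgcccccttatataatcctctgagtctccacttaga
Isg15: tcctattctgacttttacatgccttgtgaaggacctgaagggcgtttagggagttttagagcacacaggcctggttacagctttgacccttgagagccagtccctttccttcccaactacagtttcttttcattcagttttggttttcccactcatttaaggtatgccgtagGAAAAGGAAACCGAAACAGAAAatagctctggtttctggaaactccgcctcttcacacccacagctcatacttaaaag
Bst2: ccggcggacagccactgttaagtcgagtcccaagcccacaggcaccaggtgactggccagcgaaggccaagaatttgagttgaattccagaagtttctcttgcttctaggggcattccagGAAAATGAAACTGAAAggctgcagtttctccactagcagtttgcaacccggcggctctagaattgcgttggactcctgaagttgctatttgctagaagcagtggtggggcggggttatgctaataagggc
The same letters occur in the window of 936 of 27025 genes, or 3.46%. They are not in the windows of Gzmb, Irf7, Ms4a4c, Plac8 and Xaf1. Among the antiviral genes fixed as a list, 20 of 39 windows with an entry hold them, against 0 of 19 for genes of DNA replication. A match is a description of the letters.

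Ly6a encodes Sca-1, a surface protein induced by interferons in lymphocytes (chr15:74994877-74998031, minus strand, GRCm38, GENCODE vM21). In clusters 0 to 8, in this order, the colonized library had 548, 491, 432, 953, 563, 1074, 321, 889 and 536 CPM and the germ-free library 163, 149.8, 126, 281, 124, 254, 66.6, 129 and 58.7 CPM. Every colonized value was above every germ-free value. The log2 ratio was lowest in naive-like cluster 1, at 1.71 (1.53 to 1.90), and highest in proliferating-like cluster 8, at 3.19 (2.74 to 3.67).

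Isg15 encodes a ubiquitin-like protein that is joined to other proteins in the interferon response. It had 189, 203, 171, 381, 291, 260.1, 227, 240.4 and 166 CPM in the colonized and 63.5, 38.0, 40.4, 98.4, 47.0, 114, 53.8, 38.5 and 61.5 CPM in the germ-free library, from cluster 0 to cluster 8. Its ratio was smallest in effector-memory-like cluster 5, at a log2 ratio of 1.19 (0.79 to 1.61), where the germ-free level was highest. It was largest in clusters 7 and 4, at 2.64 (2.02 to 3.32) and 2.63 (2.26 to 3.01).

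Ifit3, one of the IFIT proteins that bind foreign RNA, was measured in 8 clusters. In clusters 0 to 7 it had 67.9, 140.0, 86.8, 178, 104, 87.5, 74.1 and 118 CPM in the colonized and 10.2, 11.3, 14.7, 4.02, 17.2, 31.7, 7.22 and 9.23 CPM in the germ-free library. Of the 11 genes only Plac8 had a wider range of ratios. The log2 ratio of Ifit3 ran from 1.46 (0.72 to 2.30) in cluster 5 to 5.47 (3.60 to 8.53) in cluster 3, where the germ-free library had only 2 UMIs. Its near-identical copy Ifit3b may share reads with it, so the split between them is uncertain.

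**Figure D1:**
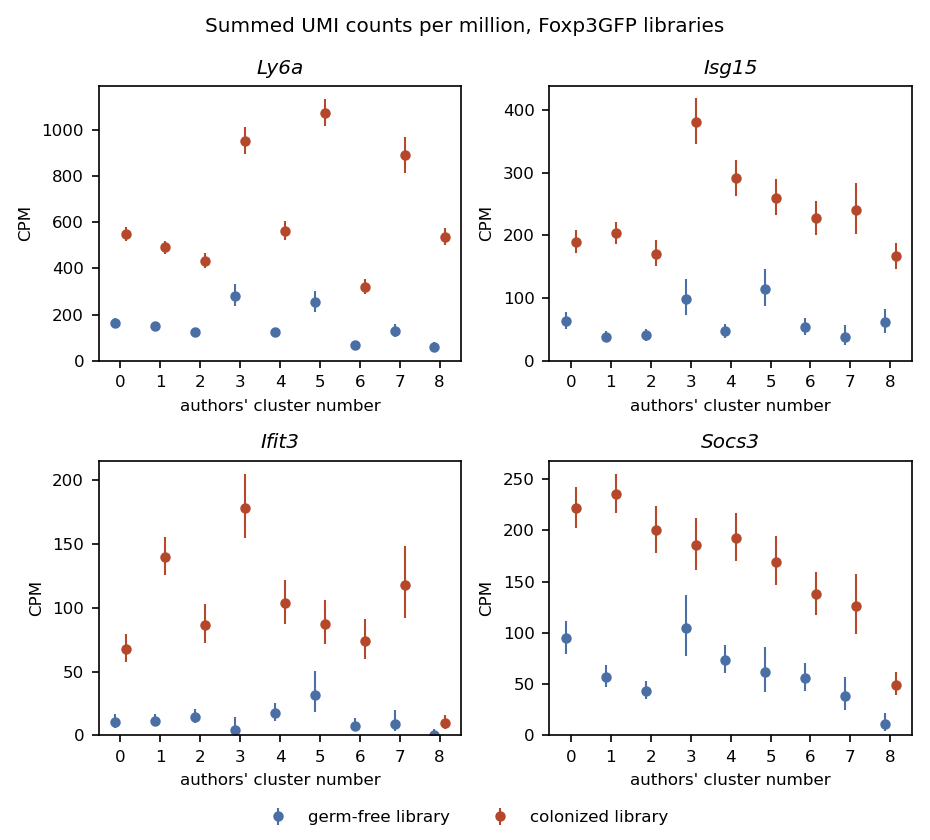
CPM of Ly6a, Isg15, Ifit3 and Socs3 in clusters 0 to 8 of the germ-free and the colonized Foxp3GFP library, on linear axes that start at 0. Points are cluster sums, bars are 95% intervals for counting error only, and the colonized point lies above the germ-free point in each cluster drawn.

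The other interferon-induced genes had smaller or similar ratios. Irf7, the transcription factor that amplifies the response, had 107 against 36.2 CPM in cluster 0 (log2 ratio 1.56) and 119 against 13.8 in cluster 7 (3.11), the ends of its range over 8 clusters. Usp18, which limits interferon signalling, lay between 1.08 and 2.18 in 7 clusters. Bst2, which tethers virus particles to the cell surface, lay between 1.11 and 1.96 in 9 clusters, with 288 against 74.3 CPM in cluster 3. The log2 ratio of Ifit1, a second IFIT gene, ran from 1.63 in cluster 1 to 3.29 in cluster 6 over 8 clusters. Xaf1 lay between 1.01 and 1.79 in 9 clusters, so that its lowest value stood just at the 2-fold bound. Ms4a4c lay between 1.28 and 2.24 in the 5 clusters where it was measured.

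A further set missed the bound in only 1 to 3 clusters. Socs3, a feedback inhibitor of cytokine receptors that signal through STAT3, had 222, 236, 200.2, 185, 193, 169, 138, 126 and 49.4 CPM in the colonized and 94.97, 56.9, 43.7, 104, 73.5, 61.6, 56.2, 38.5 and 11.2 CPM in the germ-free library over clusters 0 to 8. It was 2-fold higher in 8 of 9 clusters, and in Treg-like cluster 3 its log2 ratio was 0.83 (0.38 to 1.30). Rtp4 also passed in 8 of 9, missing in cluster 5 at 0.96 (0.47 to 1.48). Zbp1, a sensor of nucleic acids, Parp9 and Ifi27l2a passed in 7 of 9. Ifi27l2a was the most abundant of them, with 4194 against 1351 CPM in cluster 3, and it missed in cluster 5 at 0.97 and in cluster 8 at 0.83. Gbp2 and Lgals3bp passed in 6 of 9. The values just inside and just outside the bound were thus close to each other for several genes.

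**Figure D2:**
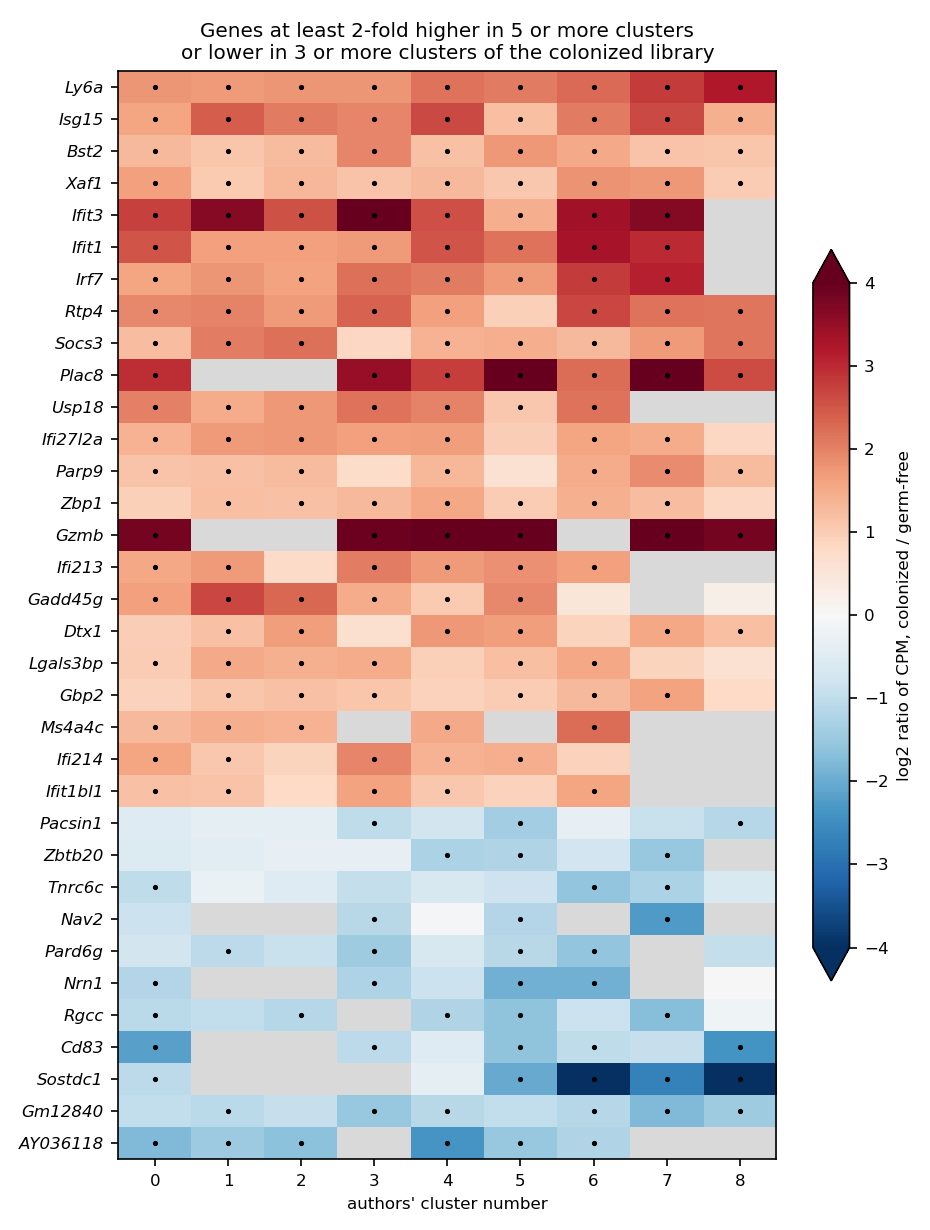
Log2 ratio of colonized over germ-free CPM by cluster for 34 genes, 23 at least 2-fold higher in 5 or more clusters and 11 lower in 3 or more. Colour gives the log2 ratio on a scale from -4 to 4, dots mark values past 2-fold and grey marks a gene not measured in that cluster. The interferon-induced genes fill most columns, while the lower genes are past 2-fold in some clusters and, in the others, either short of it or not measured.

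The antiviral genes as a group were higher in all clusters. Of 46 genes of the list in the table, 18 to 38 were measured per cluster, and 267 of 272 pairs of gene and cluster lay above a ratio of 1. The number 2-fold higher was 16 of 38 in cluster 0, 22 of 36 in cluster 1, 13 of 31 in cluster 2, 21 of 36 in cluster 3, 18 of 32 in cluster 4, 9 of 28 in cluster 5, 20 of 30 in cluster 6, 9 of 23 in cluster 7 and 5 of 18 in cluster 8, and none was 2-fold lower. Of all measured genes 0.729% to 2.9% were 2-fold higher. The median log2 ratio was lowest in cluster 8, at 0.67, and highest in Treg-like cluster 6, at 1.44, where the median over all genes was 0.02 and -0.02. Isg20, a member that encodes an exonuclease, passed in only 4 of 9 clusters (0.37 to 1.74).

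The genes that carry the interferon signal had smaller ratios than the antiviral genes. Of the list of receptors and signalling genes, 19 of 111 pairs were 2-fold higher, and 15 of these 19 were Irf7 and Usp18. Of all measured genes 0.729% to 2.9% per cluster were 2-fold higher. Ifnar1, a chain of the type I receptor, lay between -0.94 and 0.13, and Ifnar2, the other chain, between -0.24 and 0.30. Ifngr1, a chain of the interferon gamma receptor, was above 1 in 9 of 9 clusters at 0.23 to 0.81. The list median by cluster was 0.14 to 0.57.

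The GBP and IRG GTPases, which attack vacuoles that hold microbes, were above 1 in 78 of 89 pairs and 2-fold higher in 16, with medians of 0.15 to 1.04. The share of all measured genes that were 2-fold higher was 0.729% to 2.9% per cluster. Gbp2 made up 6 of the 16. Gbp3 had 92.8 against 21.5 CPM in cluster 7 (log2 ratio 2.11, 1.24 to 3.07) and Igtp lay between 0.36 and 0.89 in the clusters where it was measured. The genes of MHC class I and peptide loading were above 1 in 139 of 165 pairs and 2-fold in none, with medians of 0.08 to 0.39. H2-K1, a class I heavy chain, lay between -0.02 and 0.37, B2m, the light chain, between 0.12 and 0.55, and Psmb9, an immunoproteasome subunit, between 0.20 and 0.79. GBP and H2-Q genes are near-identical copies in part, so single members are uncertain. In the RefSeq windows, 9 of 10 GBP and IRG genes and 3 of 16 MHC class I genes hold GAAANNGAAA. TTCNNNGAA is in 6 of 10 and 1 of 16. Over all 27025 genes 3.46% hold GAAANNGAAA and 8.13% hold TTCNNNGAA, so the MHC class I share of the latter was not above that of all genes.

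**Figure D3:**
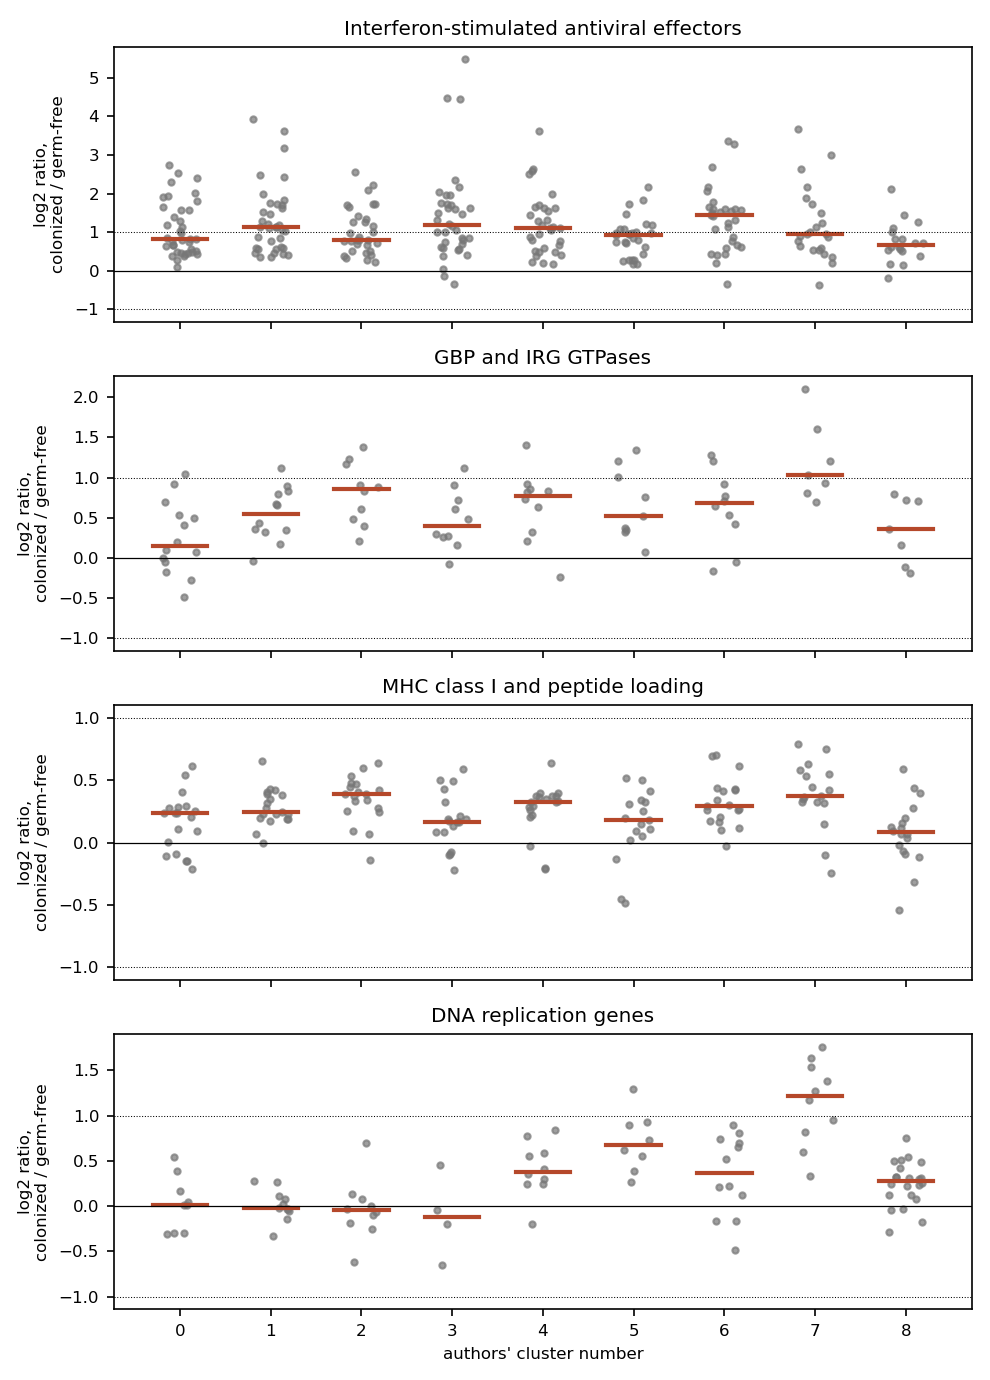
Log2 ratio of colonized over germ-free CPM of each measured gene (points) and the list median (bar) by cluster, for the antiviral, GBP and IRG, MHC class I and DNA replication genes. Dotted lines mark 2-fold. The antiviral medians are 0.67 to 1.44, the MHC class I medians 0.08 to 0.39, and the DNA replication genes stand highest in cluster 7, at a median of 1.22.

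Gzmb and Plac8 were uneven, were not measured in the naive-like clusters and, with 20 and 115 germ-free UMIs over all 9 clusters, met the rule for shared genes mostly through the minimum. Their values are a description. Plac8 had 338 against 1.87 CPM in effector-memory-like cluster 5, where the germ-free library had 1 UMI (log2 ratio 7.50, 5.01 to 12.81). In the Treg-like clusters 0, 3 and 6 it had 143, 178 and 140.1 CPM against 18.4, 16.1 and 29.7. Gzmb had 355 CPM in cluster 5 and 60.1 in cluster 8 against 0 UMIs in the germ-free library. With 0 set to a floor of 3 counts per library and cluster, it was 63.4-fold and 14.3-fold higher. Folds set by the floor are not lower bounds. In cluster 3 it had 245 against 16.1 CPM (3.93, 2.93 to 5.16). Few cells carried it. The 3 cells with the most held 25.6% of its colonized UMIs in cluster 5 and 35.9% in cluster 3.

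Chemokine receptors of effector cells were higher in part of the clusters. Ccr2, a receptor that guides cells to inflamed tissue, had 494 colonized and 43 germ-free UMIs over all 9 clusters. It was measured in 4 clusters, which it could reach only through the colonized library, with 82.5 against 16.1 CPM in cluster 3, 152 against 22.4 in cluster 5, 109 against 10.8 in cluster 7 and 46.2 against 6.99 in cluster 8. Its log2 ratio ran from 2.36 (1.32 to 3.61) in cluster 3 to 3.34 (2.22 to 4.71) in cluster 7. Cxcr3, the receptor of interferon-induced chemokines, was higher in 7 of 7 clusters at 0.37 to 2.57, with 91.2 against 15.4 CPM in cluster 7. In cluster 7 Cxcr3 too reached the minimum only through the colonized library, so its direction there was fixed. For its other clusters this was not counted. Ccr9, the receptor for homing to the small intestine, differed in direction, with 26.4 against 76.5 CPM in cluster 0 (-1.53, -2.02 to -1.06) and log2 ratios of 0.54 and 0.76 in clusters 3 and 5. Ccr9 was thus 2-fold lower in clusters 0 and 8 (-1.26) and above 1 in 3 of 8 clusters.

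Of the genes lower in the colonized library, AY036118 (chr17:39847113-39848035, minus strand, GRCm38, GENCODE vM21) was lower in 6 of 6 clusters where it was measured, at log2 ratios from -2.37 in cluster 4 to -1.22 in cluster 6. In cluster 0 it had 14.6 against 49.9 CPM. Its levels were low, with at most 18.3 CPM in a colonized and 52.3 CPM in a germ-free cluster. Cd83, a surface protein of activated lymphocytes and part of the Treg list, was 2-fold lower in 5 of 7 clusters. It had 21.9 against 98.4 CPM in cluster 0 (-2.17, -2.67 to -1.69), 141 against 289 in cluster 3 (-1.04, -1.37 to -0.70) and 21.5 against 112 in cluster 8 (-2.38, -3.002 to -1.78). Thus it was lower both in clusters 0 and 3 and in proliferating-like cluster 8.

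Sostdc1, a secreted antagonist of BMP and Wnt signals that is found in follicular helper cells, was lower in all 6 clusters where it was measured and 2-fold lower in 5. In cluster 6 it had 3 UMIs, or 2.41 CPM, against 64.2 CPM (-4.73, -7.04 to -3.13). In cluster 8 it had 0 UMIs against 82.5 CPM, 43.4-fold lower with 0 set to the floor of 3 counts. Cdk5rap1, which modifies mitochondrial tRNA, was 2-fold lower in clusters 0, 1, 2 and 6, with 5.92 against 31.4 CPM in cluster 0 (-2.41, -3.42 to -1.495). Nrn1 was 2-fold lower in 4 of 6 clusters at -1.17 to -1.93. The transcription factor genes Sox4 and Eomes were among the genes with the lowest ratios in cluster 6, with 2.41 against 39.3 CPM (-4.02, -6.35 to -2.39) and 4.02 against 37.7 CPM (-3.23, -4.92 to -1.90). In Foxp3CNS1- cluster 6 both had under 50 UMIs. The minimum fixed part of these values too. Sostdc1 in clusters 6 and 8, Cdk5rap1 in cluster 0, and Sox4 and Eomes in cluster 6 could enter only with a higher germ-free level. At their colonized level in both libraries they would not have reached 50 UMIs. For the other lower genes, AY036118 among them, this was not counted. Cdk5rap1 had -0.55 to -0.19 in Foxp3CNS1- in its 4 clusters, under 2-fold in each, while Cd83 was below 1 in all 7 clusters at -2.29 to -0.67.

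Genes that stood apart in 1 cluster were more numerous than shared genes and less firm. The rule asked that a gene be 2-fold in exactly 1 of at least 5 clusters and that its ratio differ at least 2-fold from that of the other clusters summed, with the interval of the difference leaving out 1. This gave 61 higher genes (1.23% of 4970) and 50 lower genes (1.01%). They had a median of 68 and 60.5 UMIs in their cluster over both libraries. Cluster 8 held 19 of the 61 higher genes, and cluster 3 held 16 of the 50 lower ones, against 0 and 2 in naive-like cluster 1. Between these clusters all 2-fold calls differed in the same order, but not over all clusters. Cluster 7 had the largest shares of 2-fold genes, 2.9% higher and 1.55% lower, but 9 higher and 9 lower genes of 1 cluster. Cluster 5, with 2.04% higher, had 9 higher genes of 1 cluster. Of 4798 genes measured in cluster 8 1.63% were higher, and of 4078 in cluster 3 1.13% were lower. Of 5956 in cluster 1 it was 0.907% and 0.437%. Cluster 3 had the smallest sum, 498032 UMIs in the germ-free library, and scaling by median ratios took its 2-fold lower genes from 46 to 30. The intervals were not adjusted for the number of genes and clusters looked at, and on simulated counts the rule also picked genes that had been made without a difference. With each cell thinned to 1500 UMIs 7 of the 111 genes still met the rule, and with cluster sums thinned to equal totals 8 did.

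The Foxp3CNS1- libraries were used to see which of these ratios recurred in the same cluster. The other Foxp3CNS1- clusters are not compared here, so a gene could recur without standing apart in 1 cluster there. No share of all pairs is given for the direction alone, so the counts in the same direction are a description. Of 53 higher genes measured there in the same cluster, 35 lay in the same direction and 3 were 2-fold higher, or 5.66%, where 0.894% of all pairs of gene and cluster were. Of 41 lower genes 26 lay in the same direction and 2 were 2-fold lower, or 4.88%, where 0.498% of all pairs were. The 5 genes were Ms4a4b and Satb1 in cluster 3, Ifi206 in cluster 6, and in the lower direction Dapl1 in cluster 7 and Smg5 in cluster 6, the last chosen after its values were seen.

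Ms4a4b, a membrane protein of T cells, had 850.2 against 289 CPM in Treg-like cluster 3, a log2 ratio of 1.56 (1.30 to 1.82). In the other clusters summed it was 0.28, a difference of 1.28 (1.02 to 1.54). In Foxp3CNS1- cluster 3 it was 1.26. Satb1, a chromatin organizer that is high in naive T cells, had 111 against 50.2 CPM in the same cluster (1.14, and 0.02 in the others, a difference of 1.13, 0.49 to 1.81) and 1.09 in Foxp3CNS1-. In Foxp3GFP both were thus apart in the cluster in which all 14 Treg markers passed.

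Ifi206, an interferon-induced gene of the family that senses DNA, was above 1 in the other clusters too. In cluster 6 it had 91.8 against 30.5 CPM (1.59, 1.05 to 2.16), against 0.58 in the others, a difference of 1.01 (0.44 to 1.60). It was 1.42 in Foxp3CNS1-. Smg5, a factor of nonsense-mediated decay, had 20 against 41 UMIs in cluster 6, a log2 ratio of -1.03 against 0.08 in the others.

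Dapl1 and Igfbp4 are genes of naive T cells that were lower in cluster 7. Dapl1 had 58.0 against 214 CPM (-1.88, -2.46 to -1.34) and -0.48 in the others, a difference of -1.40 (-1.99 to -0.85). In Foxp3CNS1- it was -1.05. Igfbp4 had 128 against 345 CPM (-1.43) and -0.02 in the others, and its Foxp3CNS1- value of -0.94 was just short of 2-fold.

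Other genes of this kind did not recur at 2-fold. Ccl5, a chemokine of cytotoxic and memory cells, had 136 against 24.6 CPM in cluster 7 (2.47, 1.68 to 3.34) and 0.00 in the others, and the 3 cells with the most held 84.1% of its colonized UMIs. In Foxp3CNS1- it was 0.11. Fos in cluster 0 (42.8 against 10.2 CPM, 2.06), Il17ra in cluster 5 (75.9 against 22.4 CPM, 1.76) and Capg in cluster 7 (530.5 against 188 CPM, 1.499) had Foxp3CNS1- values of 0.24, 0.11 and 0.53. In the lower direction, Egr1 in cluster 2 (10.7 against 34.7 CPM), Ahnak in cluster 4 (8.53 against 27.8 CPM) and Pdcd1 in cluster 6 (23.3 against 56.2 CPM) had log2 ratios of -1.70, -1.71 and -1.27, and of -0.46, -0.05 and -0.26 in Foxp3CNS1-.

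**Figure D4:**
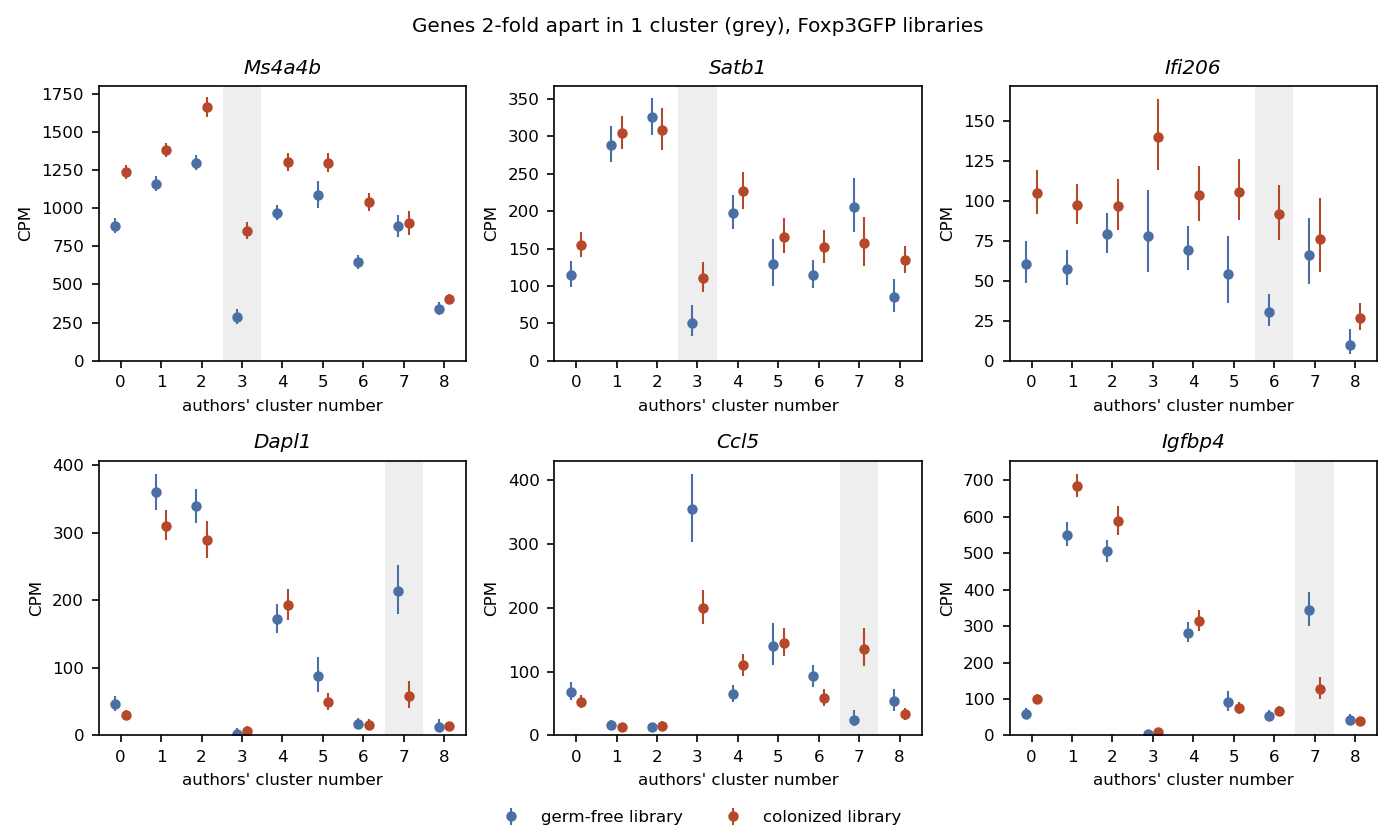
CPM in clusters 0 to 8 of the germ-free and the colonized Foxp3GFP library for 6 genes that met the rule for 1 cluster, on linear axes, with 95% intervals for counting error only. Grey marks the cluster concerned. Ms4a4b and Satb1 stand apart in cluster 3, Ifi206 in cluster 6, and Dapl1, Ccl5 and Igfbp4 in cluster 7.

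The shared genes recurred far more often. In the Foxp3CNS1- libraries, 80 of 80 pairs of a higher shared gene and a cluster lay in the same direction and 70 were 2-fold higher, or 87.5%, against the 0.894% of all pairs. In Foxp3GFP 28 of the 85 pairs could enter only with a higher colonized level, among them pairs of Gzmb, Plac8, Ifit3, Ifit1 and Usp18. The same minimum was used in Foxp3CNS1-, so part of the 87.5% was fixed by it. For Ly6a and Bst2, which it favoured in no Foxp3GFP cluster, 9 of 9 and 5 of 9 pairs were 2-fold higher. Ly6a lay between 1.49 and 3.099 and Ifit3 between 2.29 and 5.40 there. Xaf1 (0.32 to 1.36) and Bst2 (0.56 to 1.37) had most of the pairs that missed the bound. AY036118 was measured in only 1 Foxp3CNS1- cluster, at -0.90.

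**Figure D5:**
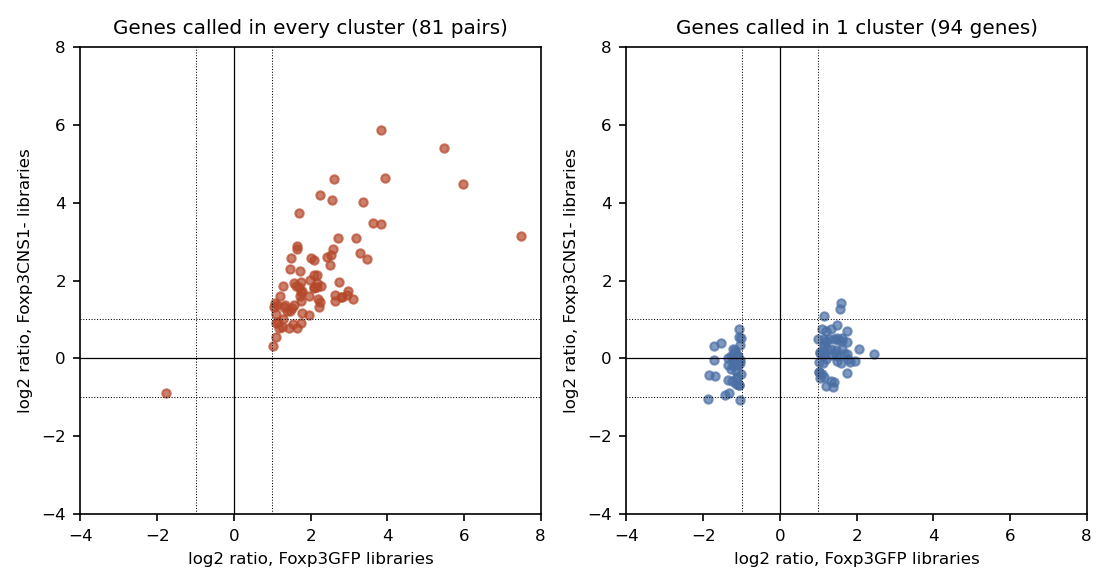
Log2 ratio of colonized over germ-free CPM in Foxp3GFP (horizontal) and in Foxp3CNS1- (vertical) for 81 pairs of a shared gene and a cluster and for 94 genes that met the rule for 1 cluster. The shared pairs lie on the same side of 0 in both strains, and the others range from -1.88 to 2.47 in Foxp3GFP and from -1.07 to 1.42 in Foxp3CNS1-.

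Among whole programs, cell division differed most in cluster 7. Of 23 genes of DNA replication 10 were measured there. All 10 were higher and 6 were 2-fold higher, where 2.9% of all measured genes were. Their median was 1.22 where the median of all genes was 0.08. Rrm2, a subunit of the enzyme that makes deoxynucleotides, had 109 against 32.3 CPM (1.76, 1.03 to 2.54), and Pcna, the sliding clamp, had 194 against 86.2 (1.17, 0.70 to 1.66). Mcm3, Mcm4 and Mcm7, parts of the replicative helicase, and Tyms, which makes thymidylate, were the others. The summed CPM of the list was 1495 against 723, a log2 ratio of 1.05. It was 0.58 without the cells above the 98th percentile of UMIs, and the 3 cells with the most held 28.9% to 56.1% of the colonized UMIs of these 6 genes. In Foxp3CNS1- cluster 7 the list had 7 of 7 genes above 1 and a median of 0.99. Of 22 mitosis genes 5 were measured in cluster 7. All 5 were higher and 4 were 2-fold higher, among them Birc5, at 92.8 against 38.5 CPM, and Top2a, at 84.5 against 27.7, of which 3 cells held 72.5%. At their germ-free level in both libraries Rrm2, Mcm7, Birc5 and Top2a would not have reached the minimum of 50 UMIs. They could enter only with a higher colonized level, so part of both counts was fixed by the minimum. The same minimum was used in Foxp3CNS1-.

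In proliferating-like cluster 8 the mitosis genes had smaller ratios. Of the mitosis genes 20 of 22 were above 1 and 2 were 2-fold higher, Plk1 (79.8 against 33.6 CPM) and Ccnb1 (139 against 60.1 CPM), and the median was 0.38. Among all genes measured in cluster 8 1.63% were 2-fold higher. Mki67, a marker of dividing cells, had 144 against 152 CPM (-0.08, -0.41 to 0.26). S100a4, a calcium-binding protein of effector cells, had 103 against 14.0 CPM there (2.88, 1.97 to 3.97).

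Naive identity genes lay mostly below 1 and Treg genes mostly above 1 in cluster 7. Among all genes measured there 2.9% were 2-fold higher and 1.55% 2-fold lower. Of the naive genes 1 of 12 lay above 1, with a median of -0.49 and 3 genes 2-fold lower, Dapl1, Igfbp4 and Foxp1 (103 against 260.0 CPM, -1.34). In Foxp3CNS1- 3 of 12 lay above 1, with a median of -0.54. Of the Treg genes 12 of 14 lay above 1, with a median of 0.52 and 4 genes 2-fold higher, among them Icos (235 against 111 CPM), Il2ra (114 against 52.3 CPM) and Itgae (64.7 against 23.1 CPM). Itgae reached the minimum only through the colonized library. The direction of the Treg genes did not recur in Foxp3CNS1-, where 4 of 11 lay above 1 at a median of -0.13. Foxp3 itself had 82.9 against 46.2 CPM in cluster 7 (0.84, 0.16 to 1.55). S100a6, of the effector genes, had 448 against 151 CPM (1.57, 1.23 to 1.92).

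In naive-like cluster 1 the Treg genes were lower. Of 12 measured 1 lay above 1, the median was -0.52, and Nrp1 (7.52 against 16.4 CPM) and Ikzf2, which encodes Helios (30.9 against 63.6 CPM), were 2-fold lower. Among all genes measured in cluster 1 0.437% were 2-fold lower. Nrp1 reached the minimum only through the germ-free library. Foxp3 had 15.4 against 28.2 CPM (-0.87, -1.502 to -0.25). In Foxp3CNS1- cluster 1, 1 of 8 lay above 1 at a median of -0.47. In naive-like cluster 2 the direction was the other, with 12 of 14 above 1 at a median of 0.41, but in Foxp3CNS1- 1 of 12 lay above 1 at a median of -0.33.

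In the 3 Treg-like clusters Foxp3 differed little, with 155 against 145 CPM in cluster 0, 259 against 229 in cluster 3 and 141 against 147 in cluster 6.

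Several of the largest ratios rested on a few cells. In cluster 8 Ccl20, Il17a and Il17f, genes of Th17 cells, had 53.8, 41.2 and 51.3 CPM against 0 UMIs each, with 92.6% to 100% of the UMIs in 3 cells. Gzma had 96.2 against 1.54 CPM in cluster 7, with 98.3% in 3 cells. The antibody chain gene Jchain had 466, 39.1 and 156 CPM in clusters 3, 4 and 8 against 0 UMIs, and 99.6% to 100% of these came from 3 cells in each. The summed plasma cell markers had 7796 against 2267 CPM in cluster 3, 1485 against 672 in cluster 4 and 3014 against 706 in cluster 8. With the cells of at least 10 immunoglobulin UMIs left out, 9 of the 11 higher shared genes were still shared.

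The heat shock genes Hspa1a and Hspa1b, near-identical copies whose reads cannot be split with certainty, were among the genes with the largest ratios in naive-like cluster 1. Hspa1a had 26.5 CPM and Hspa1b 28.5 CPM against 0 UMIs in the germ-free library. They were 17.2-fold and 18.5-fold higher with 0 set to the floor of 3 counts. In Foxp3CNS1- Hspa1a had 31.4 CPM against 0. In cluster 0 Hspa1a had 23.2 CPM against 1 UMI (5.09, 2.54 to 10.42). Elsewhere each had under 50 UMIs, with more in the colonized library in all 9 clusters. The medians of the whole heat shock list lay between -0.02 and 0.25. Cells with a UMI of either gene were 396 in the colonized and 9 in the germ-free library, and with these cells left out 11 of the 11 higher shared genes were still shared.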

How the data were processed

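The authors deposited UMI counts per gene and cell. The submitters' processing notes name Cell Ranger, Scanpy 1.5.1 and mm10. Neither a version for Cell Ranger nor a filter is given in the sources used here. The values are whole-number counts. Of 17478 cells and 13314 genes in the table, 17251 cells had a library and cluster in the authors' cell table, 303 of these had been removed by the authors, and 16948 remained. Doublets were not called.

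Sums of these counts over the cells of a library and cluster were scaled to CPM (Python 3.11.15, numpy 2.4.6, pandas 2.3.3, scipy 1.17.1, matplotlib 3.10.9). Ratios needed 50 UMIs over both libraries and carry exact (Clopper-Pearson) 95% intervals. A count of 0 was set to a floor of 3. The calculation was tested on simulated counts. Genes were named by rule: up to 12 shared genes per direction, up to 3 per direction and cluster for genes of 1 cluster and for leading genes, and members of 25 lists. Rankings left out predicted, Y-linked and mitochondrial genes, Xist, and genes of ribosomal proteins, antibodies and T cell receptors. The members and lists were chosen with earlier results of these data known.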

Additional observations from a re-analysis of the deposited data

How the results depend on the processing

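With 1 library per group no library could be left out. No paired analysis was possible because each group has 1 library. All alternatives for the recurrence in Foxp3CNS1- were chosen after seeing the data, and they kept it within 1.5 times of 87.5%. Of single named genes, 1290 values stayed within their interval of the reported ratio and 35 did not, with 0 reversals. This tally overstates stability. Of the 1290, 54 came from the minimum of 200 UMIs and 170 from no minimum, settings that leave each ratio as it was. A gene no longer measured under a setting was not scored. With thinned cells 74 values stayed and 11 did not, and with thinned sums 89 and 3. The counts of genes depended most on the fold and on the UMI minimum, which set how many genes enter.

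The genes past 2-fold numbered 118, 80, 69, 124, 93, 113, 78, 135 and 105 in clusters 0 to 8. At 1.5-fold they were 586, 479, 470, 532, 557, 568, 472, 564 and 563, with 25 shared genes higher and 6 lower and 189 and 262 genes of 1 cluster. At 3-fold they were 28, 22, 19, 37, 22, 31, 20, 31 and 32, with 4 and 0 shared and 9 and 7 of 1 cluster. With a minimum of 200 UMIs they were 20, 18, 15, 24, 17, 12, 12, 16 and 12, with 5 and 0 shared and 3 and 1 of 1 cluster. With no minimum they were 1145, 961, 1016, 1299, 1181, 1368, 1154, 1710 and 1231, with 3 shared lower and 178 and 279 of 1 cluster, and 9 of the 11 higher shared genes remained.

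Cells thinned to 1500 UMIs, without 181 colonized and 452 germ-free shallower cells, gave 59 genes in cluster 0, 61, 50, 44, 46, 36 and 20 in clusters 3 to 8, 6 and 0 shared, and 29 and 27 of 1 cluster. Sums thinned to 498032 UMIs gave 44, 27, 33, 78, 57 and 59 in clusters 0 to 5 and 52 in cluster 8, 6 and 0 shared, and 32 lower of 1 cluster. Both leave fewer UMIs per gene, and the 6 higher shared genes in each were among the 11. Equal weight per cell gave 185 genes in cluster 8, 0 shared lower and 93 higher of 1 cluster. Without the 3 top cells of each gene there were 94 higher of 1 cluster. Of the 111 genes of 1 cluster, 7 remained with thinned cells, 8 with thinned sums, 3 with a minimum of 200 UMIs, 8 at 3-fold, 51 at 1.5-fold and 46 to 74 when cells of 1 kind were left out. The lower genes outnumbered the higher in clusters 0, 1, 2, 3, 4 and 7 with no minimum, in clusters 6 and 8 with thinned sums (30 higher and 32 lower, 24 and 28), in clusters 2 and 7 without the 3 top cells (34 and 48, 54 and 61), and in cluster 0 with equal weight (63 and 64) and without Hspa1a or Hspa1b cells (55 and 56).

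Summed list log2 ratios between -0.19 and 0.27 changed sign in 11 cases, and the cause was not tested. With thinned cells they became -0.01 (from 0.15) for chemokine receptors in cluster 2, 0.083 (from -0.19) for follicular helper genes in cluster 5, 0.034 (from -0.11) for GIMAP genes in cluster 8 and 0.031 (from -0.07) for immediate early genes in cluster 4. With equal weight per cell GIMAP genes had 0.078 and helper lineage genes -0.137 (from 0.23) in cluster 8. With the cells of the most UMIs left out, those beyond the 98th percentile, GIMAP genes had 0.192 and heat shock genes -0.005 (from 0.27) in cluster 8. Without cells of at least 10 immunoglobulin UMIs MHC class I genes had -0.03 (from 0.08) in cluster 8 and S100 genes -0.012 (from 0.13) in cluster 3, and without the 3 top cells immediate early genes had 0.016 (from -0.10) in cluster 5.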

Other observations

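Differences under 2-fold also ran through all clusters. Of 2868 genes measured in all 9 clusters, 179 (6.24%) lay above a ratio of 1 in each and 172 (6%) below it. A log2 ratio of at least 0.5 in every cluster was found for 14 genes, among them Dtx1, a regulator of Notch signalling that was chosen after its values were seen. A log2 ratio of -0.5 or less in every cluster was found for 2 genes, Tox and Gm12840, both chosen after their values were seen. Under scaling by median ratios the same 14 and 2 genes were found, while 213 genes (7.43%) lay above 1 in each cluster and 160 (5.58%) below it. Tox, a transcription factor of T cell development and of chronically stimulated T cells, had 83.8 against 159 CPM in cluster 0, 106 against 245 CPM in cluster 5 and 42.3 against 80.03 CPM in cluster 1. Its log2 ratio lay between -1.21 and -0.74 in the 9 clusters, 2-fold lower in 2 of them. In Foxp3CNS1- it was below 1 in the same 9 clusters, at -1.12 to -0.21.

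Of the metabolic lists, sterol synthesis had its highest median in effector-memory-like cluster 5, with 5 of 16 genes measured, and glycolysis in cluster 7. In cluster 5 the genes of sterol synthesis lay above 1 in 5 of 5 cases with a median log2 ratio of 0.61 and a summed level of 443 against 295 CPM, and in Foxp3CNS1- 9 of 11 lay above 1 at a median of 0.59. In proliferating-like cluster 8 the sterol genes lay above 1 in 9 of 11 cases at a median of 0.44, and in Foxp3CNS1- in 11 of 12 at 0.52. In naive-like cluster 1 they lay above 1 in 3 of 9, at a median of -0.15. In cluster 7 the glycolysis enzymes lay above 1 in 11 of 13 cases with a median of 0.41 and a summed level of 4989.9 against 3336 CPM, and in Foxp3CNS1- in 10 of 10 at a median of 0.75. The GIMAP GTPases, which support lymphocyte survival, had medians near 0 in all 9 clusters, from -0.05 to 0.22.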
